A study of Sus scrofa with 23 samples.

Results

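TMED10 is 1 of 6765 genes named in the deposited table, and 2 of its 24123 probe sets read it, called here the brighter and the dimmer probe set; the plot of TMED10 by group gives their array identifiers. They are all the probe sets to which the platform annotation gives the single symbol TMED10. The gene was picked from these data, because the dimmer probe set was lower in affected than in non-affected cartilage in an earlier look at them. The difference between affected and non-affected samples is therefore described here with its standard error and not tested.

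TMED10 is a member of the p24 family, small membrane proteins that cycle between the endoplasmic reticulum and the Golgi apparatus. Their luminal part takes part in selecting cargo, such as proteins with a glycosylphosphatidylinositol (GPI) anchor. Their short cytosolic tail binds the vesicle coats COPII, which forms vesicles leaving the endoplasmic reticulum, and COPI, which forms those that return. The proteins work as complexes of several family members, in which TMED10 and TMED2 are known to depend on each other for stability, and TMED10 has also been found with the presenilin complex, which carries gamma-secretase activity. Chondrocytes secrete large amounts of collagen and proteoglycan through this pathway. In the RefSeq annotation of the pig assembly Sscrofa11.1, TMED10 lies between the protein-coding genes NEK9 and FOS. The files name no genome build, and they do not say which stretch of the transcript each probe set reads.

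The arrays were Affymetrix Porcine Genome Arrays hybridised with biotin-labelled RNA of articular cartilage from a cross of Duroc and Pietrain pigs, in which osteochondrosis, a disturbance of the growing joint cartilage, had been scored. The 4 groups were affected femur (4 arrays), non-affected femur (5 arrays), affected humerus (8 arrays) and non-affected humerus (6 arrays); the femoral tissue was the medial condyle and the humeral tissue the medial side of the condyle. Affected and non-affected pigs were sibs, but which arrays belong to sibs is not labelled, nor are age, sex and lesion grade. Nothing in the labels states that each array is another animal, so p-values measure the spread between these samples only. A pair of arrays in the affected humerus (5 and 6) and a pair in the non-affected femur (1 and 2) differed far less than other arrays of a group and were averaged, which left 21 samples: 4 and 4 in the femur, 7 and 6 in the humerus. Values are log2 intensities as deposited, so a difference of 1 is a doubling.

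The femoral and the humeral arrays also differed in the readings of controls that are added to every hybridisation. The spiked control bioB read 9.54 to 9.84 in the femoral samples, against 7.92 to 8.39 in the humeral samples. The spiked control cre read 13.66 to 13.90 in the femur, against 13.34 to 13.54 in the humerus. The poly-A control dap, which is added to the RNA before labelling, averaged 10.91 in the femur and 10.93 in the humerus. No label names a set of hybridisations. Joint and whatever gave these different control readings therefore cannot be told apart. Of 12 chondrocyte markers listed, 6 were measured, and none was at the floor of the table throughout a group. Their mean level was 11.96 in affected femur (11.75 to 12.34), 11.46 in non-affected femur (11.19 to 11.69), 11.62 in affected humerus (11.12 to 11.97) and 11.87 in non-affected humerus (11.60 to 12.09). The 5 measured of 6 osteoblast markers averaged 8.04 and 7.25 in affected and non-affected femur, against 10.85 and 10.09 in affected and non-affected humerus. The 5 endothelial markers averaged 5.20 and 6.02 in affected and non-affected femur, against 7.91 and 7.09 in affected and non-affected humerus. Myeloid markers averaged 5.43 in affected femur (4.62 to 6.44) and 7.35 in non-affected femur (6.23 to 8.22), and 8.60 and 7.81 in affected and non-affected humerus. Neutrophil markers averaged 8.49 in affected humerus (5.36 to 10.84) and 6.65 in non-affected humerus (4.76 to 11.60), and 4.91 and 4.74 in affected and non-affected femur. Osteoclast markers averaged 6.75 and 7.39 in affected and non-affected femur, against 9.74 and 8.68 in affected and non-affected humerus. In the same order, erythroid markers averaged 6.50, 5.88, 6.94 and 6.76, and skeletal muscle markers 6.28, 6.45, 5.28 and 4.91. The 3 measured of 4 adipocyte markers averaged 6.28, 6.58, 7.52 and 6.85, but they did not go the same way. FABP4 read 5.43, 6.69, 10.57 and 8.64. ADIPOQ (5.66, 5.62, 5.23 and 5.07) and LEP (7.74, 7.43, 6.75 and 6.83) were higher in the femur. The part of these cells in the TMED10 values was not tested, and in such bulk tissue fewer cells of a type and less RNA per cell cannot be told apart.

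The dimmer probe set, for which the gene was picked, read lower in every affected sample than in any non-affected sample of the same joint. In affected femur the 4 arrays read 8.92, 8.74, 9.15 and 8.83, against 9.28, 9.26, 9.43, 9.24 and 9.31 in the 5 arrays of non-affected femur. The highest affected femur, replicate 3 at 9.15, was just under the lowest non-affected femur, replicate 4 at 9.24. In affected humerus the 8 arrays read 8.89, 9.15, 9.40, 9.40, 9.18, 9.18, 9.46 and 9.58, against 9.71, 9.73, 9.84, 9.74, 9.62 and 9.77 in non-affected humerus. Affected replicate 8 at 9.58 came closest to non-affected replicate 5 at 9.62, and the affected humeri were spread over a wider range than the non-affected ones. The means were 8.91 ± 0.17 in affected femur and 9.31 ± 0.09 in non-affected femur (SD, n = 4 each), and 9.29 ± 0.23 in affected humerus (SD, n = 7) and 9.74 ± 0.07 in non-affected humerus (SD, n = 6). The difference, affected minus non-affected, was -0.40 ± 0.13 (SE) in the femur and -0.44 ± 0.10 in the humerus, and -0.43 ± 0.08 over both joints. The status difference in the femur minus that in the humerus was 0.04 ± 0.16 (SE). Of the 16799 probe sets in the tests, 0.161% had all affected humeri below all non-affected humeri and 5.07% had all affected femora below all non-affected femora. The dimmer probe set was the 1 probe set (0.00595%) with both, which is the contrast it was picked by, and 0 probe sets were higher in all affected samples of both joints.

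The brighter probe set did not separate the groups. The 4 arrays of affected femur read 10.99, 11.47, 11.30 and 10.97, against 11.31, 11.31, 10.72, 10.67 and 11.46 in non-affected femur. Non-affected femora lay both below and among the affected ones. The 8 arrays of affected humerus read 10.48, 11.34, 11.68, 11.47, 11.44, 11.40, 11.66 and 11.64, against 11.42, 10.99, 11.93, 11.75, 11.61 and 12.08 in non-affected humerus. Affected humerus 1 was far below the other affected humeri, and 3 of the 6 non-affected humeri were above all affected ones. That sample was also the lowest humeral sample on the spiked controls bioB (7.92), bioC (9.32), cre (13.34), dap (10.28, the next 10.73) and lys (7.64, the next 7.92). The means were 11.18 ± 0.24 in affected femur and 11.04 ± 0.40 in non-affected femur (SD, n = 4 each), and 11.39 ± 0.42 in affected humerus (SD, n = 7) and 11.63 ± 0.39 in non-affected humerus (SD, n = 6). The difference, affected minus non-affected, was 0.14 ± 0.26 (SE) in the femur, -0.25 ± 0.20 in the humerus and -0.10 ± 0.16 over both joints. The status difference in the femur minus that in the humerus was 0.39 ± 0.33 for this probe set, and 0.24 to 0.53 with any 1 array left out.

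**Figure D1:**
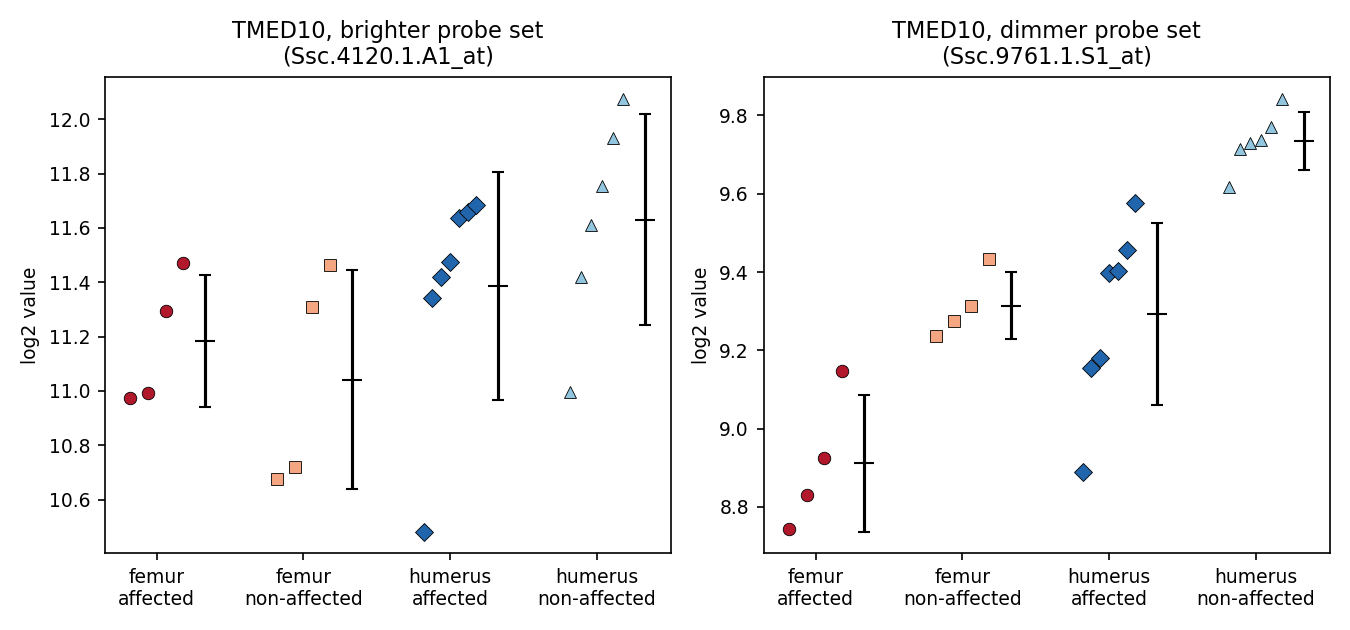
Log2 value of TMED10 (vertical axis, own scale in each panel) by group, 1 point per sample, with the group mean and SD as the bar to the right of the points. In the panel of the dimmer probe set the affected samples of each joint lie under all non-affected ones, and in that of the brighter probe set the groups overlap, with affected humerus 1 alone at 10.48.

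The order of the group means also differed between both probe sets. For the dimmer probe set it ran from affected femur (8.91) over affected humerus (9.29) and non-affected femur (9.31) to non-affected humerus (9.74). Affected humerus overlapped with the groups on either side of it, and non-affected humerus overlapped with no other group. For the brighter probe set it ran from non-affected femur (11.04) over affected femur (11.18) and affected humerus (11.39) to non-affected humerus (11.63), and every neighbouring pair of groups overlapped. The spread within groups was 0.17 (SD pooled over the 4 groups) for the dimmer probe set and 0.38 for the brighter probe set, with a median of 0.27 over the 16799 probe sets.

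Femur was compared with humerus by limma's moderated test, with status in the model and Benjamini-Hochberg adjustment over all probe sets tested. The dimmer probe set was lower in the femur, with a difference of -0.40 ± 0.08 (SE, 95% interval -0.57 to -0.23) and an adjusted p of 0.000404. It was one of many: 34.2% of the probe sets were called lower and 17.6% higher in the femur, and the median difference of all was -0.12. The same comparison gave -0.38 ± 0.11 within affected samples (adjusted p = 0.0131; 24.6% of probe sets called lower) and -0.42 ± 0.12 within non-affected samples (adjusted p = 0.00971; 25% called lower). The 4 affected femora all lay below the mean of the affected humeri, and the 4 non-affected femora below every non-affected humerus, as did 13.6% of all probe sets. After each array was centred on its median, which moves the median difference of all probe sets to 0.05, the difference was -0.23 (adjusted p = 0.0198), and the adjusted p was 0.126 within affected and 0.110 within non-affected samples. With that centring, 4909 probe sets were called higher and 3761 lower in the femur, against 2963 higher and 5744 lower with the values as deposited. Without affected femur 2 the adjusted p within affected samples was 0.0526.

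The brighter probe set had a femur minus humerus difference of almost the same size, -0.39 ± 0.17 (SE, 95% interval -0.73 to -0.05), with an adjusted p of 0.0533 that missed the threshold of 0.05. Without affected humerus 1 it was -0.47 (adjusted p = 0.00673), without non-affected humerus 2 the adjusted p was 0.0281, without affected femur 2 or 3 it was 0.0326 and 0.0490, and without non-affected femur 5 it was 0.0435. With the other 18 omissions of an array it ran up to 0.117. The difference was -0.28 with quantile normalisation (adjusted p = 0.134) and -0.22 with median centring (adjusted p = 0.246). Within affected samples it was -0.20 ± 0.23 (adjusted p = 0.509), and within non-affected samples -0.59 ± 0.23 (adjusted p = 0.0542). The distance between both probe sets of a sample, the dimmer minus the brighter, differed by -0.01 between femur and humerus over both statuses, with an exact two-sided permutation p of 0.969 (69300 rearrangements of joint within status, 8 against 13 samples).

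By group that distance averaged -2.27 ± 0.31 in affected femur and -1.73 ± 0.43 in non-affected femur (SD, n = 4 each), and -2.09 ± 0.23 in affected humerus (SD, n = 7) and -1.90 ± 0.36 in non-affected humerus (SD, n = 6). The femur was thus lower than the humerus among affected samples and higher among non-affected samples. The -0.01 averages these opposite differences, so it does not show that both probe sets gave the same joint difference within a status. Over the femoral samples the probe sets had a Pearson r of -0.26 and a Spearman rho of -0.24 (n = 8), and over the humeral samples an r of 0.67 and a rho of 0.63 (n = 13). The value in the humerus rested in part on affected humerus 1, the lowest humeral sample on both, without which r was 0.37 (n = 12). Among the affected humeri r was 0.90 (n = 7), and 0.84 without that sample. Among the non-affected humeri it was 0.42 (n = 6), but -0.11 with quantile normalisation and 0.06 with median centring. For 1207 genes with exactly 2 probe sets in the tests, the median r was 0.40 in the femur and 0.57 in the humerus, and 11.5% of them had a lower r than TMED10 in the femur and 59.7% in the humerus.

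**Figure D2:**
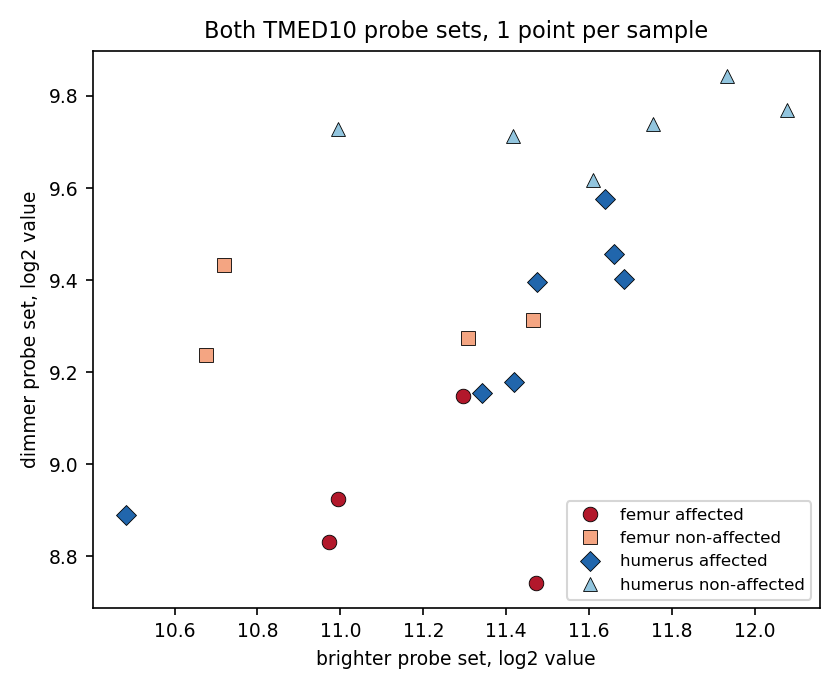
Log2 value of the dimmer probe set (vertical axis) against the brighter probe set (horizontal axis), 1 point per sample, marked by group. The non-affected humeri lie in a band at the top from 9.62 to 9.84 whatever their value on the horizontal axis, and affected humerus 1 lies alone at the lower left.

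Of the 9 other p24 family members listed, 5 are named in the annotation, and all 5 passed the filter on low values. None of them was called between affected and non-affected samples with limma's moderated test, over both joints, in the humerus or in the femur. Of all 16799 probe sets 0% were called over both joints and 0% in the humerus. In the femur 0.75% were called lower and 0.393% higher. At an unadjusted p under 0.05 all probe sets numbered 1223 over both joints, 1100 in the humerus and 3422 in the femur. The 5 p24 genes numbered 3, 0 and 2 in that order. TMED2, the partner of TMED10 in the complex, was the brightest, at 12.18 ± 0.08 in affected femur and 12.32 ± 0.12 in non-affected femur (SD, n = 4 each), and 12.31 ± 0.31 in affected humerus (n = 7) and 12.49 ± 0.34 in non-affected humerus (n = 6). Its status difference was -0.17 ± 0.11 (SE; adjusted p = 0.766). Affected and non-affected samples of TMED2 overlapped in both joints.

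TMED7, of the gamma subfamily, had a status difference of -0.24 ± 0.10 on its brightest probe set (adjusted p = 0.656). Of its 3 other probe sets, the next in brightness had -0.29 ± 0.10 (adjusted p = 0.618), and the remaining ones had 0.09 and 0.11. TMED4, of the alpha subfamily, had -0.21 ± 0.10 (adjusted p = 0.674), with -0.23 and -0.24 on its other probe sets. TMED5, of the gamma subfamily, had 0.39 ± 0.18 on its brightest probe set (adjusted p = 0.671), with 0.03 and -0.15 on its other tested probe sets. TMED3, also of the gamma subfamily, read 8.57 to 8.83 in affected femur, against 9.18 to 9.58 in non-affected femur, a difference of -0.68 ± 0.17 (adjusted p = 0.0560). Of all 16799 probe sets, 5.07% likewise had all affected femora below all non-affected femora. In the humerus TMED3 had 0.20 ± 0.13 (adjusted p = 0.789), with 9.08 to 9.89 in affected and 8.83 to 9.46 in non-affected humerus. Over both joints 4 of these 5 genes had a negative status difference on their brightest probe set, with a median of -0.17, against a median of -0.01 over all probe sets tested.

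Between the joints 3 of the 5 were called, 2 lower and 1 higher in the femur, where 34.2% of all probe sets were called lower and 17.6% higher. TMED5 was lower in the femur, with a difference of -1.18 ± 0.18 (adjusted p = 3.77e-05), and its other tested probe sets had -0.25 and -0.50. TMED7 was lower, with -0.40 ± 0.11 (adjusted p = 0.00368). TMED4 was higher in the femur, with 0.46 ± 0.10 (adjusted p = 0.000673). TMED2 had -0.15 ± 0.12 (adjusted p = 0.303) and TMED3 -0.29 ± 0.14 (adjusted p = 0.0904), and neither was called. With median centring TMED2 had 0.02, so its sign depends on the scaling, while the brightest probe sets of the other 4 kept theirs. The median of the 5 was -0.29, beside -0.12 over all probe sets.

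**Figure D3:**
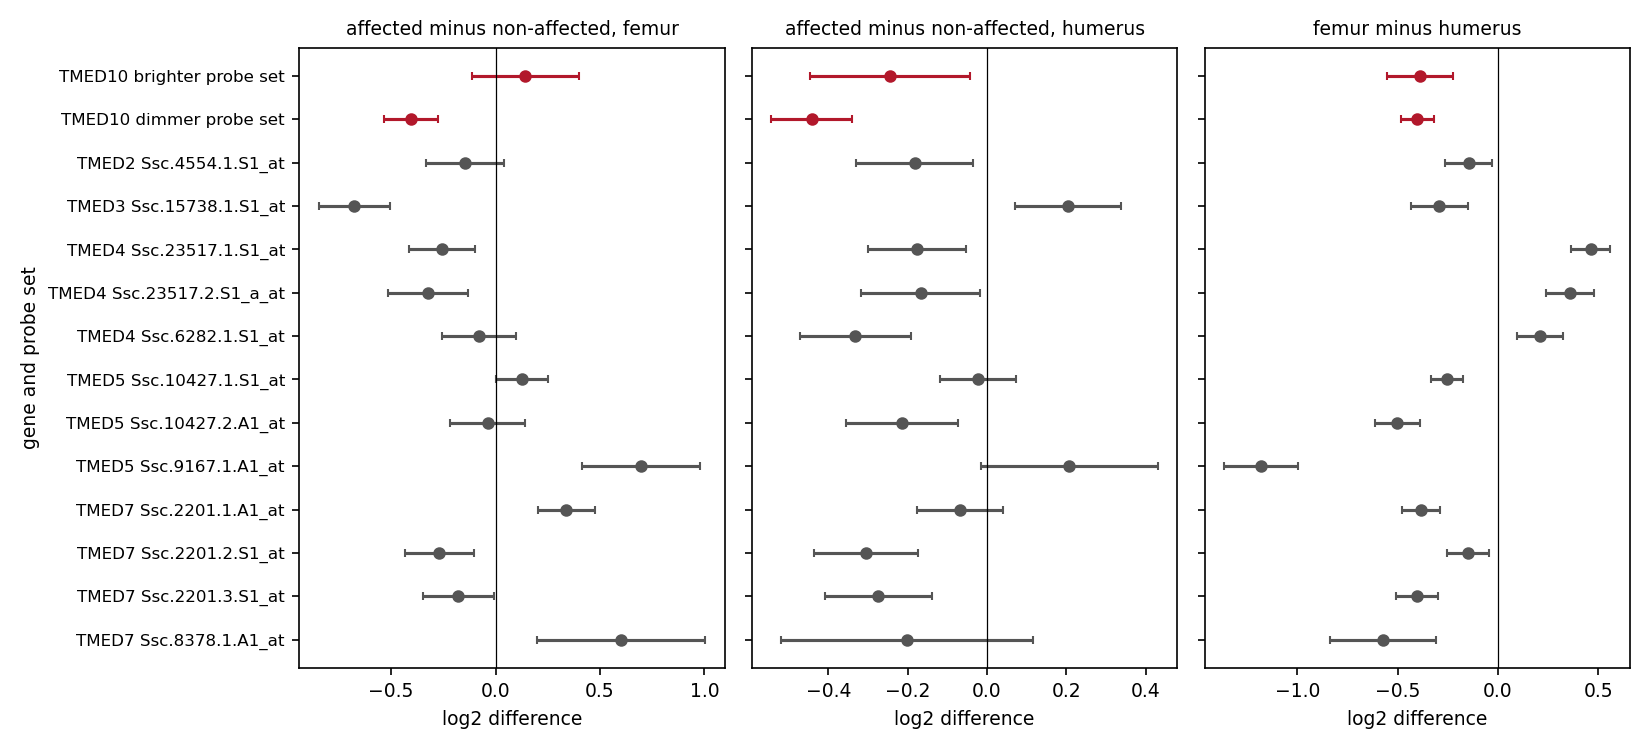
Log2 difference with its standard error (horizontal axes, own scale in each panel) of each TMED10 probe set (red) and of each tested probe set of 5 other p24 genes (grey), for status in either joint (affected minus non-affected) and for joint (femur minus humerus). In the humerus panel the dimmer probe set lies farthest to the left, and in the panel of femur minus humerus TMED4 lies right of 0 and the others left of it, of which TMED2 and 1 probe set of TMED7 move to 0.02 with median centring.

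The coats that carry TMED10 were described from 7 lists of early secretory genes, with 92 genes listed and 58 in the tests besides TMED10, taking the brightest probe set of each. In the femur against the humerus 18 of the 58 (31.0%) were called lower and 3 (5.17%) higher, against 34.2% lower and 17.6% higher of all probe sets. With median centring 10 of the 58 were called lower and 9 higher, beside 3761 lower and 4909 higher of all probe sets tested. Without affected humerus 1 the count of higher ones was 5. Between affected and non-affected samples 0 of the 58 were called by limma over both joints, in the femur or in the humerus. At an unadjusted p under 0.05 they were 8, 9 and 3 in that order. Over all 16799 probe sets those numbers were 1223, 3422 and 1100. Among the COPI coat and ARF genes 2 of 14 were called higher and 2 lower in the femur, and among the COPII genes 3 of 11 lower and 0 higher, counts that do not stand above the shares of all probe sets. COPG1, a coat subunit, was higher by 0.35 (adjusted p = 0.00142), while the coat subunit COPZ2 had a difference of -0.50 (adjusted p = 0.00233) and the small GTPase ARF4 -0.27 (adjusted p = 0.00417). The COPII genes called lower were SAR1B, the GTPase that starts coat assembly (-0.25, adjusted p = 0.0224), MIA2, a receptor at the exit sites (-0.40, adjusted p = 0.0413), and PREB, the exchange factor of SAR1 (-0.28, adjusted p = 0.0414; its 2 other probe sets had 0.04 and 0.11). In the humerus all 11 COPII genes had a negative status difference (median -0.16, against -0.01 over all probe sets), and none of them was called. At an unadjusted p under 0.05 they were 2, beside 1100 of all 16799 probe sets. In the femur 7 of the 11 were negative and 4 positive. Of the 14 COPI genes 9 were positive and 5 negative in the humerus (median 0.02), and all 4 tested GPI anchor genes were positive there. In the femur 2 of the 14 COPI genes were positive and 12 negative (median -0.15). All 4 GPI anchor genes were negative in the femur (median -0.20, against 0.01 over all probe sets).

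Of 10 other cargo receptors 6 were called lower in the femur and 0 higher, with a median of -0.34, beside 34.2% called lower, 17.6% higher and a median of -0.12 over all probe sets. The largest differences of those named by the rule were CNIH1, a receptor of the cornichon family, at -1.11 (adjusted p = 6.11e-06), MCFD2, which works with the lectin LMAN1, at -0.89 (adjusted p = 9.00e-05) and SURF4, a receptor for soluble cargo, at -0.57 (adjusted p = 7.30e-05). Among the Golgi tethers and SNAREs 4 of 10 were called lower, near the share of all probe sets, with the SNARE GOSR1 at -0.58 (adjusted p = 3.22e-05), the SNARE-recycling ATPase NSF at -0.49 (adjusted p = 5.32e-05) and the GTPase RAB1A at -0.53 (adjusted p = 0.00285; its other probe sets had -0.80 and 0.35). Of the 4 gamma-secretase genes and substrates the precursor APP alone was called, at -0.33 (adjusted p = 0.00151). PSENEN, a subunit of gamma-secretase, had a status difference of -0.54 in the femur (adjusted p = 0.0814). Of the 4 genes for GPI anchor attachment none was called in the femur against the humerus. At an unadjusted p under 0.05 they were 0, beside 9731 of all 16799 probe sets. PIGT had 0.17 in the femur against the humerus (adjusted p = 0.163).

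Whether TMED10 moved with its coat genes was asked within the groups, as the correlation of deviations from the group means, so that neither status nor joint enters it. A total of 40 genes were correlated with each TMED10 probe set within each joint, each gene by its brightest probe set alone. They came from the p24, COPI and COPII lists and from genes named earlier for their status difference. The p-values came from permutations within status groups and were adjusted over the 40. For the brighter probe set in the humerus (n = 13, 100000 permutations), 14 of the 40 passed, 9 with a positive and 5 with a negative r, and 5 of the 40 passed by Spearman's rho. Of all 40 genes 20 had a positive r, with a median r of 0.03. Over 5904 genes with a symbol 46.1% had a positive r, with a median of -0.07 and 5% below -0.753. The share of those that would pass the same test was not computed. COPB1, a COPI coat subunit, had r = 0.98 and rho = 0.93 (permutation, adjusted p = 0.000800 and 0.00400). SEC23A, a subunit of the inner COPII coat, had r = 0.97 and rho = 0.91 (permutation, adjusted p = 0.00120). TMED2 had r = 0.93 and rho = 0.85 (permutation, adjusted p = 0.00120), and TMED7 had r = 0.86 and rho = 0.76 (permutation, adjusted p = 0.000800). The other probe sets of COPB1, SEC23A and TMED7 were not correlated with TMED10. On the negative side ARF5, a GTPase of the COPI cycle, had r = -0.85 and rho = -0.69 (permutation, adjusted p = 0.00600), and ARFGAP2, which ends that cycle, had r = -0.83 and rho = -0.80 (permutation, adjusted p = 0.0136). TMED3 had r = -0.54 and TMED4 r = -0.34, and neither passed.

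With each of the 13 samples left out in turn COPB1, SEC23A, TMED2 and TMED7 passed every time (permutation, adjusted p at most 0.00670), with r from 0.96 to 0.99 for COPB1, 0.93 to 0.98 for SEC23A, 0.91 to 0.95 for TMED2 and 0.71 to 0.92 for TMED7. The number of genes that passed leaned on few samples. Without affected humerus 1 and non-affected humerus 2, which lay farthest from the median of TMED10 and whose omission narrows its range, COPB1 had r = 0.91 (permutation, adjusted p = 0.0387) and TMED7 r = 0.69 (permutation, adjusted p = 0.0387), and those were the 2 of 40 that still passed; SEC23A had r = 0.83 and TMED2 r = 0.83 (permutation, adjusted p = 0.0731 each). SAR1B had r = 0.85 with all samples and 0.26 without both. Without affected humerus 1 alone 4 of 40 passed, and without non-affected humerus 2 alone 9 passed. Over 5904 genes with a symbol, 5% had an r above 0.867 with this probe set in the humerus, so high values were common. The spiked control cre, which is no pig transcript, had r = 0.72 with the brighter probe set in the femur and 0.82 in the humerus on the same scale, and r = -0.40 in the femur and 0.65 in the humerus with the dimmer one. With the brighter probe set the array median had r = 0.80 in the femur and 0.55 in the humerus. The 3' minus 5' reading of gapdh had 0.61 in the femur and 0.52 in the humerus, and that of actin 0.71 and -0.04. The poly-A control dap had -0.62 in the femur and 0.42 in the humerus. The part of the hybridisation and of these measures in the correlations was not tested.

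In the femur (n = 8, exact permutation over all 576 rearrangements) none of the 40 passed for the brighter probe set, with 6 at an unadjusted p under 0.05. The smallest permutation p there was 0.0139. With so few rearrangements no gene by itself could pass the adjustment over 40 genes, whatever its r. The count in the femur therefore cannot be set against that in the humerus. SEC23A had r = 0.94 and COPB1 r = 0.93, each with an exact permutation p adjusted to 0.181, and both kept a high r without the samples farthest from the median, at 0.96 and 0.91. TMED2 had r = 0.70, while TMED7 had r = -0.25. For the dimmer probe set none of the 40 passed in the humerus (10 unadjusted) or in the femur (0 unadjusted), with permutation tests of the same kind. The highest of them in the humerus was TMED7, with r = 0.81 (permutation, adjusted p = 0.112), followed by TMED2 with r = 0.70. In the femur TMED7 had r = 0.27 and TMED2 r = -0.28 with this probe set.

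**Figure D4:**
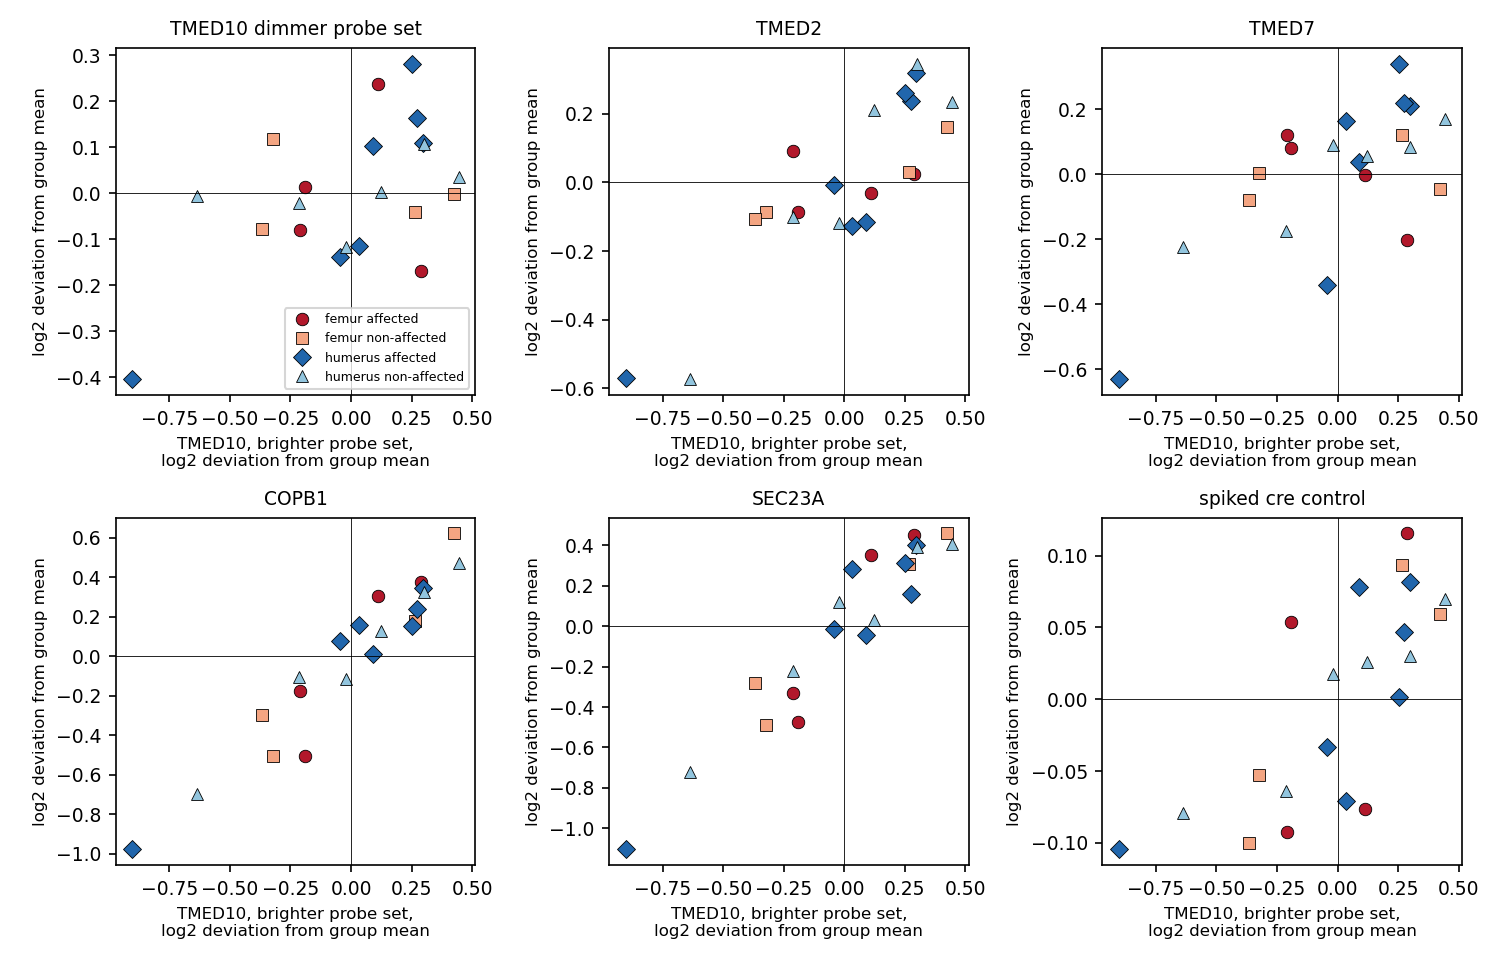
Log2 deviation from the group mean of the dimmer TMED10 probe set, TMED2, TMED7, COPB1, SEC23A and the spiked control cre (vertical axes, own scales) against that of the brighter probe set (horizontal axes), 1 point per sample, marked by group. COPB1 and SEC23A follow a line in both joints (r from 0.93 to 0.98), and affected humerus 1 is the lowest point on the horizontal axis in all 6 panels.

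**Figure D5:**
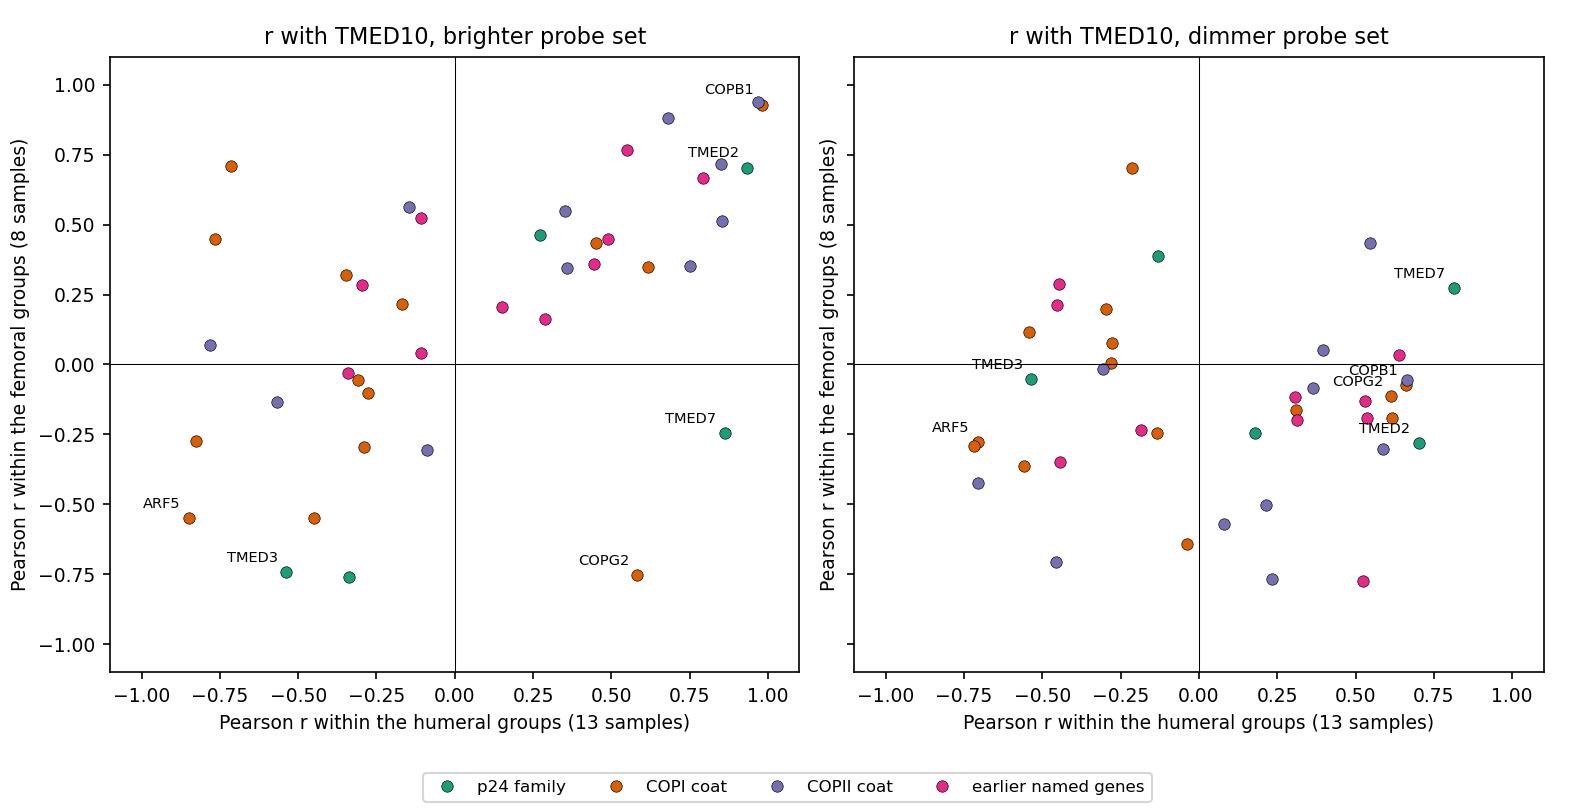
Pearson r of the deviations from the group means with each TMED10 probe set, in the humerus (horizontal axis, 13 samples) and in the femur (vertical axis, 8 samples), 1 point for each of 40 genes, coloured by list; the earlier named genes were chosen in these data for their status difference. COPB1 lies at the upper right for the brighter probe set, and for the dimmer probe set no gene is above 0.5 in both joints.

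Of the 10 genes named earlier for their status difference, POGLUT1, which adds glucose to EGF repeats of Notch and other proteins, passed with the brighter probe set in the humerus, at r = 0.79 (permutation, adjusted p = 0.0136). The others did not pass. ANGPTL4, a secreted inhibitor of lipoprotein lipase, had r = 0.28 in the femur and -0.30 in the humerus, and TNFRSF12A, the receptor of the cytokine TWEAK, had r = 0.77 in the femur and 0.55 in the humerus, where the exact permutation p in the femur was 0.181 after adjustment.

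The genes most like TMED10 over the samples were ranked by the lower of their r in the femur (8 samples) and in the humerus (13 samples), without removal of the group means and with no test. For the brighter probe set the list began with SERP1, which protects nascent membrane proteins in the endoplasmic reticulum (r = 0.98 in the femur and 0.97 in the humerus), PPP1CB, a catalytic subunit of protein phosphatase 1 (0.96 and 0.98), and UTP11, a factor of ribosomal RNA processing (0.97 and 0.95). RAB2A, a GTPase between endoplasmic reticulum and Golgi (0.95 and 0.97), COPB1 (0.93 and 0.98), ERLEC1, a lectin of the endoplasmic reticulum (0.93 and 0.94), the transcription factor subunit NFYB (0.96 and 0.93) and the splicing factor RBM39 (0.94 and 0.93) followed. The most opposite genes were OST4, a small subunit of the oligosaccharyltransferase (-0.93 and -0.86), TNIP1, UBXN6, PPP2R1A and CSNK2B, at -0.81 to -0.88 in either joint.

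For the dimmer probe set, whose samples differ by status, the likeness was lower and holds the status difference in it. SERPINI1 (0.90 in the femur and 0.83 in the humerus) and SERPINA1 (0.77 and 0.78), both secreted inhibitors of proteases, came first, followed by the carboxypeptidase CPD (0.68 and 0.68), TMED7 (0.67 and 0.80) and SAR1B (0.65 and 0.69). With the group means removed SERPINI1 had 0.93 and 0.64, SERPINA1 0.82 and 0.64, and TMED7 0.27 and 0.81. The most opposite gene was CCDC30, at -0.79 and -0.82. TMED7, SAR1B, COPB1 and RAB2A are also among the genes of the fixed lists, and the first 8 genes of one probe set share none with those of the other.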

How the data were processed

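Gene expression in pig articular cartilage was measured on 23 Affymetrix Porcine Genome Arrays. The deposited table holds log2 values with a floor at 4, made by the authors with GCOS 1.1.1 per the submitters' processing notes; the normalisation step was not given in the sources used here. Depth does not apply, and the number of arrays limits the precision. Values were used as deposited. The annotation gives 1 symbol to 10099 probe sets, several to 198 and lists none for 13826. Array pairs of a group with an SD of their difference under 0.25 (0.108 and 0.214; the next pair had 0.341) were averaged. Of 24123 probe sets, 124 controls and those with a mean under the 30th percentile (5.30) were left out, which left 16799.

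limma 3.58.1 (R 4.3.3; lmFit, eBayes) fitted joint and status, or the 4 group means, with Benjamini-Hochberg adjustment and a threshold of 0.05. Correlations and figures used Python 3.11.15 with numpy 2.4.6, scipy 1.17.1, pandas 2.3.3 and matplotlib 3.10.9. The scripts were tested on simulated data. The alternatives were quantile normalisation, median centring, other filters, all 23 arrays, array weights, trended and robust variances, fits within a joint, the other probe set and leaving out arrays.

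The members and lists were chosen with earlier results of these data known. Named genes are each measured p24 gene, the genes of each list with the smallest p by joint or by status, or the highest or lowest r with TMED10 in the humerus (2 each), the 8 most alike and 5 most opposite genes, and 10 earlier named genes. The main TMED10 probe set is the brighter one. Correlations with the dimmer probe set, the distance between the probe sets, the spiked controls beside the joints and the fit without the 3 lowest samples were added after seeing the data. Gene names came from the annotation alone, and no sequences are printed.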

Additional observations from a re-analysis of the deposited data

Results flagged for a closer look

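Of 28 groups of values of TMED10 and other p24 genes looked at for a sample apart from its group, 2 held one by Dixon's criterion at 95%, and chance marks about 1 in 20 groups. The brighter probe set of TMED10 read 10.48 in affected humerus 1, with the next affected humerus at 11.34, and this gap was 0.716 of the group's range, above the critical value of 0.568. This sample was also the lowest humeral sample on 5 spiked controls, such as dap (10.28, the next 10.73), and their part in its value was not tested. TMED5 read, on its brightest probe set, 8.43 in affected humerus 2, with the next at 7.60, a gap of 0.683 of the range.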

How the results depend on the processing

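No paired analysis was possible because the labels do not say which samples are sibs and replicate numbers follow accession order. The call of the dimmer probe set as lower in the femur held under all 9 other settings (-0.45 to -0.23) and all 23 omissions of an array (-0.44 to -0.38). Within affected samples it was lost with quantile normalisation (-0.26, adjusted p = 0.0797), median centring (-0.22) and without affected femur 2 (-0.46 to -0.33 over all omissions); within non-affected samples it was lost with quantile normalisation (-0.29) and median centring (-0.24). For the brighter probe set the same comparison was called with all 23 arrays (-0.37), array weights (-0.47), the mean of both probe sets (-0.40) and 5 of 23 omissions (-0.47 to -0.43; -0.47 to -0.32 over all), as it was for the dimmer probe set (-0.40). Its value within non-affected samples was called with all arrays (-0.54), array weights (-0.69), the mean (-0.51) and 3 omissions (-0.73 to -0.59; -0.73 to -0.47 over all), and for the dimmer probe set (-0.42); within affected samples it was called for that probe set alone (-0.38). The status difference in the femur was -0.40 on the dimmer probe set, against 0.14 on the brighter one. For the brighter probe set the difference of status effects was -0.11 without affected humerus 1 and non-affected femur 3 and 4. Those samples were picked for their low values on the brighter probe set, so that their omission lowers this value by construction. Probe sets called higher in the femur numbered 4701 (quantile) and 4909 (median), and lower 3761 (median). Probe sets called by status in the femur numbered 66 higher and 126 lower; the higher ones were 39 over the 50th percentile, 217 with all arrays, 10 with array weights, 26 without these 3 samples, 0 with the femur alone and 8 to 202 with an array left out, and the lower ones 404, 49, 28, 4 and 38 to 277 under the same settings bar the percentile. List genes called higher were 6 with the smallest p per gene, 6 with quantile normalisation, 9 with median centring and 2 to 5 with an array left out; lower ones were 10 with median centring. Genes correlated with TMED10 in the humerus numbered 2 without the 2 farthest samples, 0 with the second probe set and 4 to 14 with an array left out. The cause of these changes was not tested. Signal over background was not in the table, which limits what the dim probe sets show.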
